A study of Mus musculus with 42 samples.

Results

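Genes of cholesterol synthesis, fatty acid synthesis and liver X receptor (LXR) action were followed in mouse bone marrow-derived macrophages given dexamethasone (Dex), a synthetic glucocorticoid, or vehicle. The genes were chosen by symbol from a fixed list, and all 42 were found among the 11160 genes of the deposited table of estimated counts. They hold 8 genes of the mevalonate pathway up to squalene, 10 of the steps that turn squalene into cholesterol, 6 of the control of the SREBP factors and of sterol transport, 10 of fatty acid synthesis, elongation and desaturation, and 8 of LXR, its targets and cholesterol handling.

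Macrophages were grown from marrow for 6 days with M-CSF at 50 ng/ml, detached, plated again and treated on the next day. Cells of 2 genotypes were used, MS4A4A KO and wild type (WT); MS4A4A is a membrane protein of macrophages. In both genotypes RNA was taken from cells after 2, 8 and 24 h with 1 µM Dex, after the same times with vehicle, and from untreated cells at 0 h, which gives 14 groups of 3 libraries, 42 in all. The sources used here do not give the KO allele, the strain, sex or age of the mice or how many mice were used. Whether libraries with different replicate numbers stem from different mice or dishes is not stated either, and the p-values below cover only their spread, which may be technical.

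Cholesterol is built from acetyl-CoA through mevalonate, squalene and lanosterol. The genes of this route are switched on by SREBP2, a membrane-bound factor that the escort protein SCAP carries to the Golgi for cleavage when sterols are scarce and that INSIG proteins hold back in the endoplasmic reticulum when sterols are plentiful; SREBP1 acts more on fatty acid genes. LXR receptors are activated by oxysterols, and in macrophages they are known for inducing the cholesterol exporters ABCA1 and ABCG1. RNA levels do not show the cleavage of SREBP proteins or the activity of LXR. In bulk RNA, fewer cells of a type and less RNA per cell cannot be told apart.

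The 250 bases before the gene start are printed for 5 of the genes with large falls after 8 h of Dex, for Srebf2, the gene of the regulator, and for Tm7sf2, a sterol synthesis gene that did not pass the test at any time, so that genes that moved can be set beside one that did not. They come from RefSeq, build GRCm38.p6, and 33 of the 42 genes had a promoter in that table; Fdps, Fdft1, Sqle, Stard4, Scd1, Scd2, Fads1, Abcg1 and Npc1 had none there. Each runs 5′ to 3′ on the strand of its gene and ends at the base before the start given in that table. By the GENCODE M21 gene coordinates used elsewhere here, the Tm7sf2 window lies wholly within its gene (6062821 to 6068373, minus strand). By the same coordinates the windows of Idi1, Hsd17b7, Msmo1, Cyp51 and Srebf2 reach into their genes. Capitals mark matches to the sterol regulatory element (searched as TCACNCCAC) and to the CCAAT box (searched as CCAAT, shown as ATTGG where it lies on the other strand), whose matches share no bases in these sequences. The places are chr13:119690101-119690350 (plus strand) for Hmgcs1, chr13:8885356-8885605 (plus strand) for Idi1, chr1:169969206-169969455 (minus strand) for Hsd17b7, chr8:64733579-64733828 (minus strand) for Msmo1, chr5:4104698-4104947 (minus strand) for Cyp51, chr15:82147019-82147268 (plus strand) for Srebf2 and chr19:6067851-6068100 (minus strand) for Tm7sf2.
Hmgcs1: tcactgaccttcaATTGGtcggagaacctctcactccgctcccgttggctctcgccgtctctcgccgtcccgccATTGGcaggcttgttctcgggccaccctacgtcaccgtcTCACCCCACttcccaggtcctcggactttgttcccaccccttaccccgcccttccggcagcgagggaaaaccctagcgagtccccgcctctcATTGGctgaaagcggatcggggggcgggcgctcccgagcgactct
Idi1: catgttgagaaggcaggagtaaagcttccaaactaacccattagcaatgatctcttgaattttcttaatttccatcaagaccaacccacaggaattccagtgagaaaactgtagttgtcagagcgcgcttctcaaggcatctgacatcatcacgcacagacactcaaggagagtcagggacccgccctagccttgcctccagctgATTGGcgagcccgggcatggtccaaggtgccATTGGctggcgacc
Hsd17b7: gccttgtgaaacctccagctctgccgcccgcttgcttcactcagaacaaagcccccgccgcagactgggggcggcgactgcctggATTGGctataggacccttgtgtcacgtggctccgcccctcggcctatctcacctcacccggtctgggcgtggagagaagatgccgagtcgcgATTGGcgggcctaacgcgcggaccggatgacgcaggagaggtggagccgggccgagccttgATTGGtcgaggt
Msmo1: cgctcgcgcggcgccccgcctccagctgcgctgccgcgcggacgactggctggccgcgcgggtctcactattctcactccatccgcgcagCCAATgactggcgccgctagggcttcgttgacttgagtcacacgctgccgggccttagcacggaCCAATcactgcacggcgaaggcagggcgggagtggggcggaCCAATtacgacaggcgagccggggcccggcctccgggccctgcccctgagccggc
Cyp51: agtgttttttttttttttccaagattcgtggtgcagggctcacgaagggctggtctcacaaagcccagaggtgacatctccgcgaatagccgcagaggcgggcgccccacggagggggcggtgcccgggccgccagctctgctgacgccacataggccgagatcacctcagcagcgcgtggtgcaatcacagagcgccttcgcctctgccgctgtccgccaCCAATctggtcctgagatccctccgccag
Srebf2: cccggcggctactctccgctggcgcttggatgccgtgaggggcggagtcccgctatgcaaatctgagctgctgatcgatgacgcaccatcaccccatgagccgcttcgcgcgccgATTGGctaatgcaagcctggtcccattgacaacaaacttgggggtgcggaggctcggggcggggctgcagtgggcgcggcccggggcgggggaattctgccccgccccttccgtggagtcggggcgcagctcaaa
Tm7sf2: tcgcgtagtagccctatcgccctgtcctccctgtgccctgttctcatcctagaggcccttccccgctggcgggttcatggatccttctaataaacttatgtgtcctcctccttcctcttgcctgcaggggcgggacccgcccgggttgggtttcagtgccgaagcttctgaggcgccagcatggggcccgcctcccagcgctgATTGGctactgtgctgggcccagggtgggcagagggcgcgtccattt

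A match to the sterol regulatory element was present in 1 of the 33 genes, Hmgcs1, where it began 137 bases before the start. Among all 27025 genes of RefSeq's list 1.22% had a promoter of this length with one. CCAAT matches, on either strand, were present in 24 of the 33 genes (72.7%), against 37.5% of the genes of that list. Among genes of the list that are also in the table of counts the share was 41%. All 9 of the genes between squalene and cholesterol with a promoter and 5 of the 6 mevalonate genes with one held a CCAAT match. Those 9 include Tm7sf2 and Sc5d, whose RNA did not pass the main test at any time. Matches to the palindromic glucocorticoid response element and to the LXR element DR4, on both strands, were found in 0 of the 33 genes, against 0.44% and 0.226% of the genes of the list. These are descriptions of letters in a short window and say nothing on binding.

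The 42 libraries held between 10140211 and 33528397 counts, with a median of 27998690, and the least abundant of the 42 genes had 2589 counts over all libraries. Markers of macrophages were all present (7 of 7, summed to at least 17878 CPM in every library; CPM are counts scaled by library size). Ms4a4a, the targeted gene, averaged less in KO than in WT in every condition, at 46.7 ± 2.69 CPM in untreated KO and 89.1 ± 6.36 CPM in untreated WT cells (SD, n = 3 each). Between untreated KO and WT cells 0 of all 11160 genes were called by edgeR, so Ms4a4a was not called there. Its transcript stayed measurable in KO and was higher with Dex. It reached 368 to 424 CPM at 8 h and 747 to 802 CPM at 24 h in KO, where WT with Dex had 596 to 649 and 1499 to 1683 CPM. Fkbp5, a gene that glucocorticoids induce, was at 297.7 to 1156 CPM in the Dex libraries, and Tsc22d3, another such gene, at 1577 to 2736 CPM. Among vehicle libraries of 24 h it was at 69.9 CPM in KO replicate 2 and at 12.4 to 19.0 CPM in the other 5. The same KO library had 529 CPM of Tsc22d3, where the other 5 had 187 to 360 CPM, and 179 CPM of Ms4a4a, more than the 142 and 148 CPM of WT vehicle replicates 2 and 3 of 24 h. This library, labelled KO vehicle, stands apart, and results at 24 h are given with and without it where a call depends on it.

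Per length of annotated exon, the most abundant of these RNAs in untreated cells were Npc2 at 254.1 and Soat1 at 107.3 CPM per kb, both of cholesterol handling, followed by the elongase Elovl1 at 60.1 and the citrate lyase Acly at 31.2 CPM per kb. In the sterol pathway Msmo1 stood at 30.2, Hmgcs1 at 24.5, Ebp at 22.15, Idi1 at 17.0 and Cyp51 at 15.6 CPM per kb. At the low end were Scd1 at 0.670, Acaca at 0.752, Elovl6 at 0.835 and Fads2 at 1.24 CPM per kb. Scd1 and Scd2 are similar neighbouring genes on chromosome 19 of GRCm38 (44394455 to 44407879 and 44293674 to 44306864), so how reads were split between them is uncertain.

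In the main fit, which had no replicate block, Dex lowered much of the cholesterol pathway from 8 h on. It raised a few genes of elongation, desaturation and lysosomal cholesterol export, while the LXR exporters were not called. After 2 h 4 of the 42 genes were higher and 4 lower with Dex than with vehicle (edgeR quasi-likelihood F test, adjusted p under 0.05, mean of both genotypes), together 19% of them; of all 11160 genes 14.5% were called, 8.14% higher and 6.41% lower. At 8 h 5 were higher and 15 lower, together 47.6%, against 52.2% of all genes (27.5% higher, 24.7% lower). The share called at 8 h was thus no larger than that of all genes, while 35.7% of these genes were lower. At 24 h 7 were higher and 21 lower, together 66.7%, against 53.6% of all genes (26.8% higher and 26.8% lower). The median log2 fold change of the 42 genes was -0.04 at 2 h, -0.16 at 8 h and -0.24 at 24 h, and that of all genes 0.01 at both 8 and 24 h. With the replicate number as a block, Hmgcs1, Fdps, Sqle, Stard4 and Elovl1 were also called lower at 2 h (log2 -0.30 to -0.13).

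The 6 Dex libraries lay wholly below the 6 vehicle libraries for 1 of the 42 genes at 2 h, 11 at 8 h and 16 at 24 h, and wholly above them for 3, 4 and 3 genes. Of all genes 8.97% at 2 h, 37.2% at 8 h and 28.7% at 24 h had no overlap in either direction. With both directions counted, the share of the 42 genes was close to that of all genes at 2 and 8 h. It was larger than that of all genes at 24 h. The shares of all genes wholly below or wholly above are not given here for these comparisons. Dex at 24 h gave the lowest levels of the whole study for 12 of the 42 genes (28.6%): Acat2, Idi1, Fdps, Sqle, Lss, Cyp51, Nsdhl, Srebf2, Insig1, Stard4, Elovl6 and Fads2 were lower in each of the 6 libraries than in any of the 36 others, which held for 5.79% of all genes. None of the 42 was higher in those 6 libraries than in all others, against 3.31% of all genes.

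**Figure D1:**
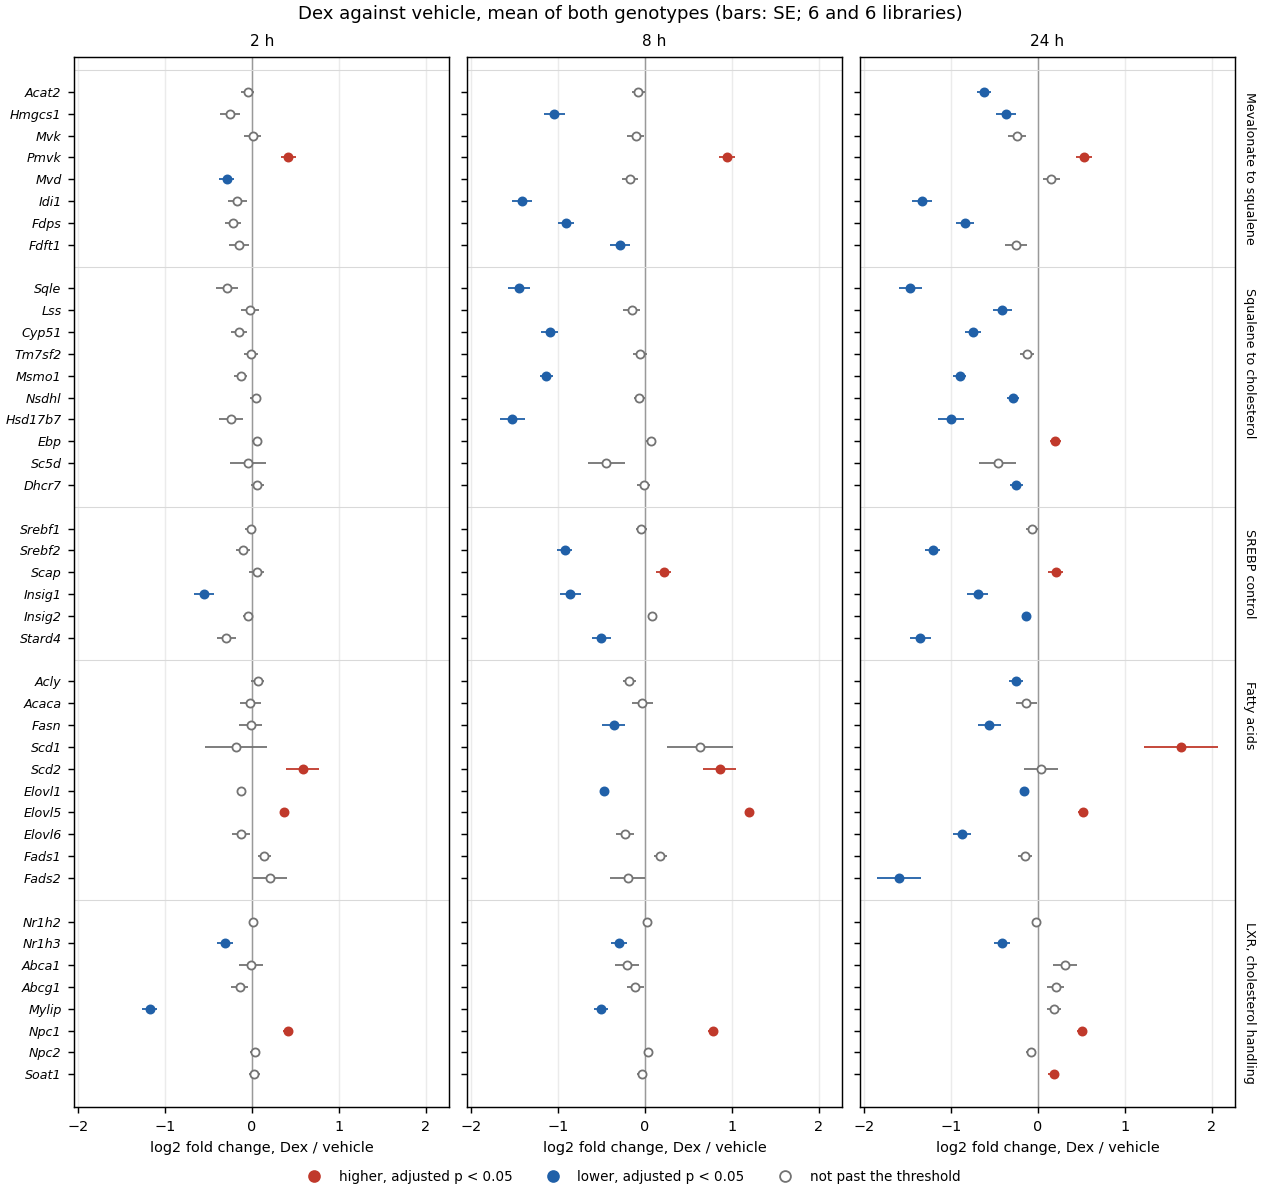
Log2 fold change of Dex over vehicle (x axis; points, bars are SE) for each of the 42 genes (rows, by role) after 2, 8 and 24 h, as the mean of KO and WT. Filled points passed an adjusted p of 0.05; at 2 h they are 8, at 8 h 20 and at 24 h 28, most of them on the side of lower levels with Dex at the 2 later times.

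In the mevalonate pathway 1 gene rose and 1 fell at 2 h, 1 rose and 4 fell at 8 h, and 1 rose and 4 fell at 24 h, of 8. Hmgcs1, the synthase that makes HMG-CoA, lies on chromosome 13 (119690379 to 119708260, plus strand, GRCm38). Its level after 8 h was 51.8, 65.4 and 70.0 CPM (lowest, median and highest of 6) with Dex and 95.8, 136 and 150.3 CPM with vehicle. At 24 h the same 3 values were 63.6, 69.8 and 73.6 CPM with Dex and 80.6, 90.9 and 96.4 CPM with vehicle. The 2 groups did not overlap at either time. The log2 fold change was -1.04 ± 0.12 (SE) at 8 h, a 2.06-fold fall with an edgeR adjusted p of 2.86e-09, and -0.36 ± 0.12 at 24 h.

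Idi1, the isomerase that makes the building block of isoprenoids, fell most in this group. It was at 19.3, 24.7 and 27.5 CPM with Dex and at 50.8, 66.7 and 70.7 CPM with vehicle after 8 h. After 24 h it was at 10.7, 13.2 and 15.97 CPM with Dex and at 28.3, 31.0 and 40.6 CPM with vehicle, so the groups were apart at both times. The fall was 2.66-fold at 8 h (log2 -1.41 ± 0.11) and 2.51-fold at 24 h (log2 -1.33 ± 0.11). Fdps, which makes farnesyl diphosphate, was at 19.8, 24.9 and 28.6 CPM with Dex and at 35.2, 47.8 and 53.7 CPM with vehicle at 8 h, and at 13.5, 14.9 and 17.6 CPM with Dex and at 20.3, 28.2 and 29.6 CPM with vehicle at 24 h. Neither pair of groups overlapped, and the falls were 1.87-fold and 1.79-fold.

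Pmvk, phosphomevalonate kinase, moved against the others. With Dex it stood at 11.8, 12.3 and 13.4 CPM at 2 h, where vehicle gave 8.17, 9.29 and 10.7 CPM. At 8 h it was at 13.97, 15.2 and 16.2 CPM with Dex and at 6.78, 8.09 and 8.80 CPM with vehicle. At 24 h it was at 7.90, 10.9 and 11.5 CPM with Dex and at 6.20, 6.91 and 8.73 CPM with vehicle. Its rise was 1.34-fold at 2 h, 1.92-fold at 8 h (log2 0.94 ± 0.09; edgeR adjusted p = 5.60e-11) and 1.45-fold at 24 h, and its groups overlapped at 24 h alone. Acat2, the cytosolic thiolase of the first step, fell at 24 h alone, with 7.71, 9.80 and 10.0 CPM with Dex and 12.5, 14.2 and 15.9 CPM with vehicle (log2 -0.62 ± 0.08).

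Smaller changes in this group were less firm. Mvd, mevalonate diphosphate decarboxylase, was at 8.57, 9.55 and 10.8 CPM with Dex and at 9.84, 12.2 and 13.1 CPM with vehicle at 2 h, groups that overlapped (log2 -0.29 ± 0.09). The call held in 7 of the 12 fits that each left out 1 library, with values between -0.35 and -0.25; it was lost without KO Dex replicate 1 or 2, KO vehicle replicate 2 or 3 or WT vehicle replicate 3. Fdft1, squalene synthase, was lower at 8 h (log2 -0.29 ± 0.12), a call that held in 6 of 12 such fits with values between -0.37 and -0.23; it was lost without WT Dex replicate 1, KO Dex replicate 1 or 2, KO vehicle replicate 2 or 3 or WT vehicle replicate 3. Mvk, mevalonate kinase, was not called at any time, with -0.24 ± 0.10 at 24 h.

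**Figure D2:**
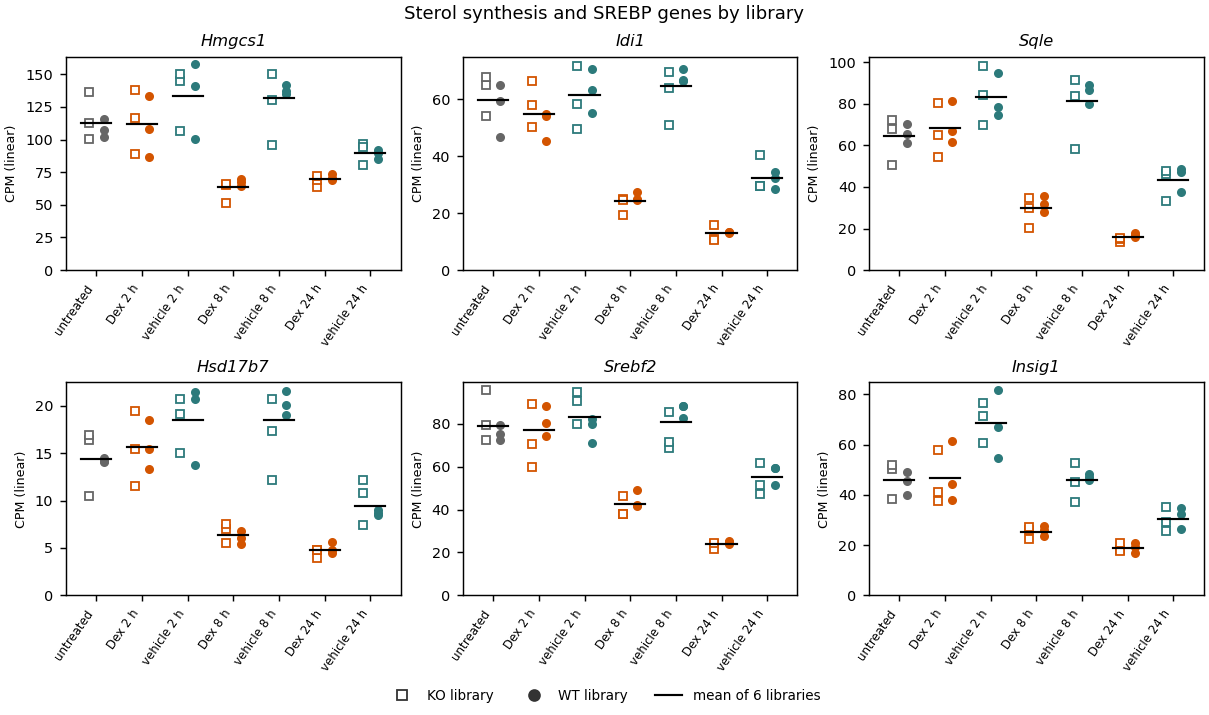
CPM (y axis, linear from 0) of Hmgcs1, Idi1, Sqle, Hsd17b7, Srebf2 and Insig1 in every library, by condition (x axis); squares are KO, circles WT, bars the mean of 6 libraries. After 8 and 24 h the Dex libraries of all 6 genes lie below the vehicle libraries of the same time, and at 24 h the vehicle libraries lie below those of 8 h on average.

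Between squalene and cholesterol 4 of 10 genes fell at 8 h and 7 fell at 24 h, where 1 rose. None was called at 2 h by edgeR in the main fit, with 1 gene at an unadjusted p under 0.05. With the replicate block Sqle was called lower at 2 h (log2 -0.29, adjusted p = 0.0202, edgeR). Sqle, squalene epoxidase and a rate-limiting enzyme of the route, lies on chromosome 15 (59315077 to 59331192, plus strand). It stood at 20.1, 30.7 and 35.5 CPM with Dex and at 58.4, 85.2 and 91.4 CPM with vehicle after 8 h. At 24 h the levels were 13.4, 15.8 and 17.8 CPM with Dex and 33.1, 46.6 and 48.7 CPM with vehicle. Neither time had any overlap, and the falls were 2.72-fold (log2 -1.45 ± 0.13) and 2.76-fold (log2 -1.47 ± 0.13; edgeR adjusted p = 1.63e-11).

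Hsd17b7, a sterol keto-reductase, had the largest fall of the 42 genes at 8 h. Dex libraries held 5.45, 6.43 and 7.57 CPM and vehicle libraries 12.2, 19.6 and 21.6 CPM, a 2.88-fold difference (log2 -1.53 ± 0.15). At 24 h it was at 3.95, 4.78 and 5.65 CPM with Dex and at 7.38, 8.87 and 12.2 CPM with vehicle, again without overlap (log2 -1.0 ± 0.15). Msmo1, methylsterol monooxygenase, was the most abundant of these RNAs per length in untreated cells and had the lowest p of the group at 8 h. It was at 74.6, 98.2 and 105 CPM with Dex and at 177, 209 and 218 CPM with vehicle after 8 h (log2 -1.13 ± 0.07; edgeR adjusted p = 7.43e-15), and at 64.6, 70.2 and 76.2 CPM with Dex and 119, 129 and 141 CPM with vehicle after 24 h (log2 -0.90 ± 0.07). Cyp51, lanosterol demethylase, was at 30.7, 36.9 and 38.8 CPM with Dex and at 57.7, 79.5 and 87.0 CPM with vehicle after 8 h, a log2 fold change of -1.10 ± 0.09, and at 22.1, 25.0 and 26.7 CPM with Dex and 36.0, 42.6 and 46.8 CPM with vehicle after 24 h (log2 -0.74 ± 0.10).

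3 genes of this group fell at 24 h but were not called at 8 h. Lss, lanosterol synthase, was at 7.28, 9.05 and 9.97 CPM with Dex and at 10.1, 12.0 and 13.4 CPM with vehicle (log2 -0.40 ± 0.11). Nsdhl, a sterol dehydrogenase, had a log2 fold change of -0.29 ± 0.07 and Dhcr7, a reductase of the end of the pathway, one of -0.25 ± 0.08. Ebp, a sterol isomerase, was slightly higher (log2 0.20 ± 0.06), with 47.2, 51.3 and 54.0 CPM with Dex and 41.0, 44.0 and 46.6 CPM with vehicle. Tm7sf2, a sterol reductase, had -0.06 ± 0.08 at 8 h and -0.12 ± 0.08 at 24 h. Sc5d, a sterol desaturase, had -0.44 ± 0.21 and -0.46 ± 0.22; both missed the threshold, and WT replicate 3 was the lowest of the 6 libraries in all 7 conditions, for example at 17.9 CPM after 8 h of Dex where the other 5 libraries held 25.0 to 34.3 CPM.

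Among the SREBP genes 1 fell at 2 h, 3 fell and 1 rose at 8 h, and 4 fell and 1 rose at 24 h, of 6. Srebf2, which encodes SREBP2, lies on chromosome 15 (82147181 to 82205379, plus strand). After 8 h it was at 37.8, 41.9 and 48.9 CPM with Dex and at 68.5, 84.1 and 88.5 CPM with vehicle. After 24 h it was at 21.5, 24.2 and 25.2 CPM with Dex and at 47.3, 55.4 and 61.7 CPM with vehicle. The log2 fold change was -0.92 ± 0.08 at 8 h and -1.2 ± 0.09 at 24 h, a 2.3-fold fall (edgeR adjusted p = 8.51e-14), with no overlap at either time. Srebf1, the gene of the other SREBP, was not called at any time, with log2 fold changes of -0.02 ± 0.07, -0.04 ± 0.07 and -0.06 ± 0.07. At 24 h its levels were 29.9, 32.98 and 35.7 CPM with Dex and 31.1, 34.2 and 37.8 CPM with vehicle.

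Insig1, itself a sensitive SREBP target, was the sterol gene that fell by the most at 2 h. It was at 37.4, 42.7 and 61.5 CPM with Dex and at 54.7, 69.1 and 81.6 CPM with vehicle, groups that overlapped (log2 -0.55 ± 0.12; edgeR adjusted p = 0.00056). At 8 h it was at 22.6, 25.9 and 27.6 CPM with Dex and at 37.2, 46.5 and 52.5 CPM with vehicle, and at 24 h at 16.7, 18.7 and 20.9 CPM with Dex and 25.5, 30.7 and 35.0 CPM with vehicle, without overlap (log2 -0.86 ± 0.12 and -0.69 ± 0.12). Stard4, a soluble sterol carrier, was at 8.499, 11.2 and 12.4 CPM with Dex and at 11.8, 16.1 and 19.1 CPM with vehicle at 8 h, groups that overlapped. Its log2 fold change was -0.50 ± 0.11 at 8 h and -1.35 ± 0.12 at 24 h, when it was at 3.46, 3.74 and 4.49 CPM with Dex and at 6.56, 10.3 and 11.1 CPM with vehicle. Insig2, the other INSIG gene, was at -0.13 ± 0.05 at 24 h, a call that was lost without WT vehicle replicate 1 or WT Dex replicate 3 (range -0.16 to -0.10). Scap, at 48.5, 51.0 and 53.3 CPM with Dex and 41.6, 42.7 and 48.6 CPM with vehicle at 8 h, was higher by 0.21 ± 0.09 there and at 24 h. These calls held in 4 and in 5 of the 12 fits that each left out 1 library and were lost with median-ratio scaling.

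Fatty acid genes moved both ways. Of 10, 2 rose at 2 h, 2 rose and 2 fell at 8 h, and 2 rose and 5 fell at 24 h. Elovl5, an elongase of polyunsaturated fatty acids, had the lowest p of all 42 genes at 8 h. It was at 127, 145 and 152 CPM with Dex and at 101, 109 and 121 CPM with vehicle after 2 h, at 209, 225 and 240 CPM with Dex and at 91.6, 97.9 and 103 CPM with vehicle after 8 h, and at 124, 137 and 154 CPM with Dex and at 91.7, 96.7 and 99.4 CPM with vehicle after 24 h. The groups were apart at each time, with rises of 1.29-fold, 2.29-fold (log2 1.2 ± 0.05; edgeR adjusted p = 7.93e-20) and 1.43-fold.

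Scd2, a stearoyl-CoA desaturase, rose at the early times alone. At 8 h it was at 83.7, 109 and 126 CPM with Dex and at 35.2, 58.9 and 76.7 CPM with vehicle (log2 0.86 ± 0.19), and at 24 h at 22.7, 33.6 and 45.3 CPM with Dex and at 19.6, 34.7 and 40.7 CPM with vehicle (log2 0.04 ± 0.20). At 2 h it was at 65.2, 107 and 133 CPM with Dex and at 48.7, 68.7 and 80.6 CPM with vehicle, and that call (log2 0.58 ± 0.19) held in 4 of the 12 fits that left out a library, with values between 0.41 and 0.69. Scd1, the neighbouring desaturase and a well-known LXR and SREBP1 target, was scarce. At 24 h it was at 0.551, 2.354 and 3.43 CPM with Dex and at 0.256, 0.691 and 1.24 CPM with vehicle, groups that overlapped, with a log2 fold change of 1.65 ± 0.42 (edgeR adjusted p = 0.00134). Within KO the Scd1 call at 24 h held in 1 of the 6 fits that left out a library, with log2 values between 1.35 and 2.17, and without KO vehicle replicate 2 it missed the threshold at 1.95 (edgeR adjusted p = 0.0504).

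Fads2, a desaturase of polyunsaturated fatty acids, had the largest fall of all 42 genes at 24 h. It was at 0.404, 0.771 and 1.24 CPM with Dex and at 1.28, 2.25 and 3.31 CPM with vehicle, a 3.02-fold difference between groups that did not overlap (log2 -1.59 ± 0.26). At 8 h its log2 fold change was -0.19 ± 0.20. Elovl6, an elongase of saturated fatty acids, was at 2.30, 2.87 and 3.16 CPM with Dex and at 4.28, 5.14 and 5.97 CPM with vehicle after 24 h (log2 -0.87 ± 0.11). Fasn, fatty acid synthase, was at 17.7, 18.5 and 23.3 CPM with Dex and at 24.5, 27.6 and 35.6 CPM with vehicle at 24 h, without overlap (log2 -0.56 ± 0.13). At 8 h it was at 21.2, 23.3 and 29.4 CPM with Dex and at 26.3, 31.8 and 35.5 CPM with vehicle, and that fall (-0.36 ± 0.13) was lost without WT Dex replicate 1, KO Dex replicate 1, KO vehicle replicate 2 or WT vehicle replicate 3 (range -0.43 to -0.32).

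Elovl1, an elongase of very long chains, was 1.39-fold lower at 8 h, at 115, 120 and 125 CPM with Dex and 161, 167 and 169 CPM with vehicle, and 1.11-fold lower at 24 h. Acly, which makes cytosolic acetyl-CoA, was lower at 24 h (log2 -0.25 ± 0.08). Acaca, acetyl-CoA carboxylase, and Fads1, the other polyunsaturated desaturase, were not called at any time. With the replicate number as a block, shared by both genotypes, 24 of the 42 genes (57.1%) were called at 8 h, against 56.6% of all genes in the same fit. Sc5d, Acly and Elovl6 were then lower (adjusted p = 0.0421, 0.0163 and 0.0469, edgeR) and Fads1 higher (adjusted p = 0.00557, edgeR). By the correlation rule given below, same-numbered Dex and vehicle libraries paired within each genotype at 8 h. Those of KO and WT with Dex at 8 h did not (lowest correlation -0.026), so these added calls are less firm.

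**Figure D3:**
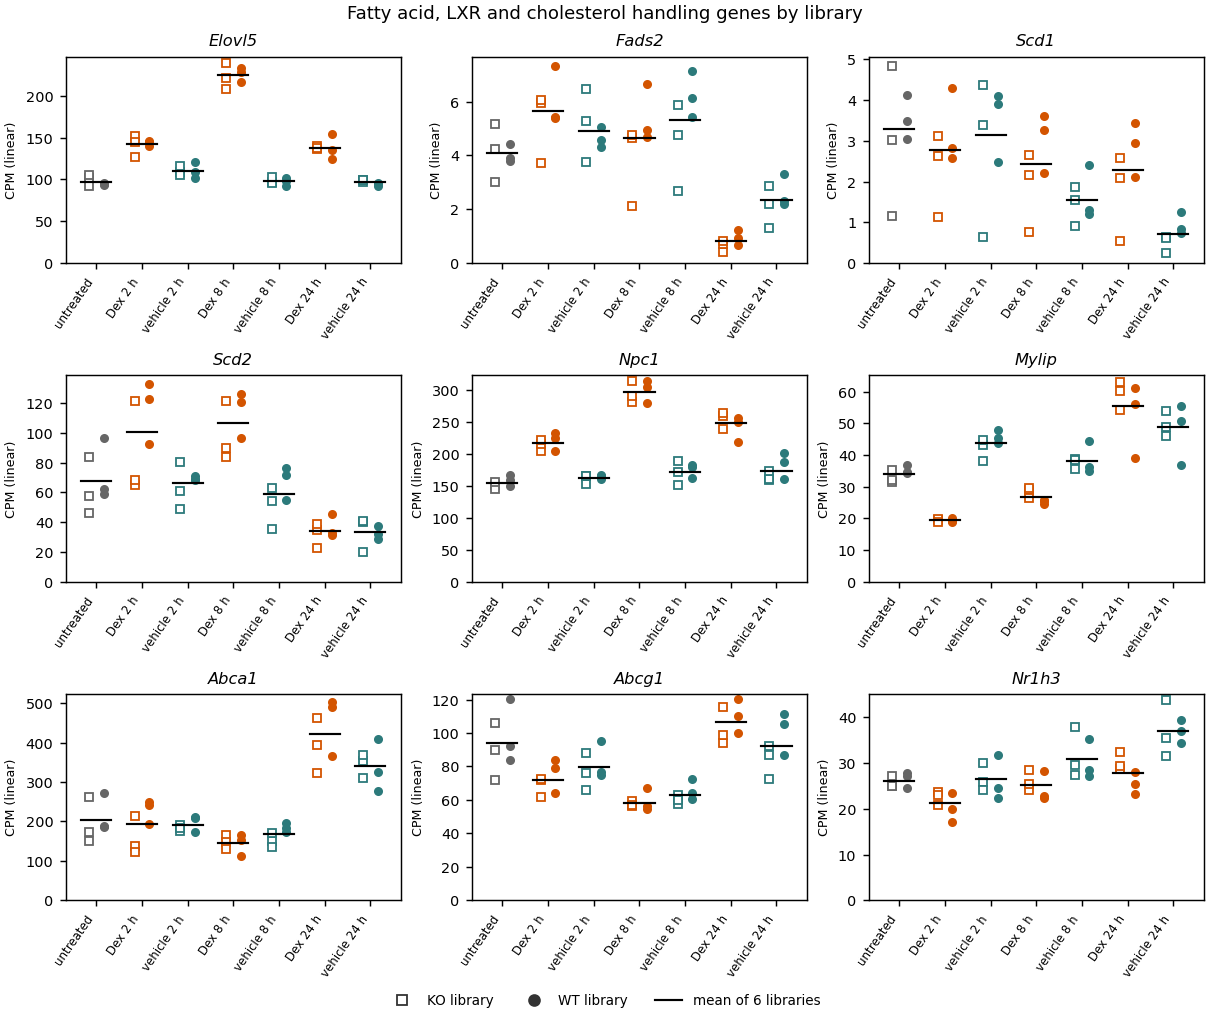
CPM (y axis, linear from 0) of 9 fatty acid, LXR and cholesterol handling genes in every library, by condition (x axis); squares are KO, circles WT, bars the mean of 6 libraries. Elovl5 and Npc1 with Dex lie above vehicle at all 3 times, Mylip with Dex lies below vehicle at 2 and 8 h, and Fads2 with Dex lies below vehicle at 24 h.

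Of the 8 LXR and cholesterol handling genes 1 rose and 2 fell at 2 h, 1 rose and 2 fell at 8 h, and 2 rose and 1 fell at 24 h. Nr1h3, the gene of LXRα, was modestly lower at each time. It was at 17.1, 21.9 and 23.7 CPM with Dex and at 22.3, 25.1 and 31.8 CPM with vehicle at 2 h, at 22.3, 24.7 and 28.4 CPM with Dex and at 27.1, 29.0 and 37.8 CPM with vehicle at 8 h, and at 23.1, 28.4 and 32.3 CPM with Dex and at 31.5, 36.2 and 43.7 CPM with vehicle at 24 h, groups that overlapped. The log2 fold changes were -0.31 ± 0.10, -0.30 ± 0.10 and -0.41 ± 0.10. The call at 2 h was lost without WT vehicle replicate 1, KO vehicle replicate 1, KO Dex replicate 2 or WT Dex replicate 3 (range -0.37 to -0.23), and that at 8 h without KO vehicle replicate 1 (range -0.36 to -0.22). Nr1h2, the gene of LXRβ, had 0.01 ± 0.05, 0.03 ± 0.05 and -0.01 ± 0.05.

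The exporters Abca1 and Abcg1, classic LXR targets, were not called at any time with Dex in the main fit. With the replicate block both were called higher at 24 h (adjusted p = 0.0442 and 0.00778, edgeR). By the correlation rule given below, same-numbered Dex and vehicle libraries of 24 h did not pair in KO. Abca1 was at 112, 151 and 166 CPM with Dex and at 135, 172 and 197 CPM with vehicle after 8 h (log2 -0.20 ± 0.14), and at 322, 428 and 504 CPM with Dex and 277, 339 and 408 CPM with vehicle after 24 h (log2 0.31 ± 0.14; edgeR adjusted p = 0.0572). Abcg1 was at 94.2, 105 and 120.1 CPM with Dex and at 72.4, 89.5 and 112 CPM with vehicle after 24 h, and its log2 fold changes were -0.14 ± 0.10, -0.11 ± 0.10 and 0.21 ± 0.10 at the 3 times.

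Mylip, an LXR target whose ubiquitin ligase removes lipoprotein receptors, had the largest change of all 42 genes at 2 h. It was at 18.8, 19.4 and 20.0 CPM with Dex and at 38.2, 44.2 and 47.9 CPM with vehicle, a 2.26-fold fall between groups that did not overlap (log2 -1.17 ± 0.09; edgeR adjusted p = 4.41e-13). At 8 h it was at 24.6, 26.2 and 29.6 CPM with Dex and at 35.0, 37.3 and 44.3 CPM with vehicle, a smaller fall (log2 -0.50 ± 0.08). At 24 h the groups overlapped, with 39.1, 58.2 and 63.0 CPM with Dex and 37.0, 49.9 and 55.6 CPM with vehicle (log2 0.19 ± 0.08; edgeR adjusted p = 0.0538).

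Npc1, which exports cholesterol from lysosomes, was higher at each time. It was at 204, 218 and 232 CPM with Dex and at 153, 165 and 167 CPM with vehicle after 2 h, at 278, 297 and 314 CPM with Dex and at 150.3, 175 and 188 CPM with vehicle after 8 h, and at 218, 252 and 263 CPM with Dex and at 159, 167 and 201 CPM with vehicle after 24 h. The groups were apart at all 3 times, with rises of 1.33-fold, 1.73-fold and 1.43-fold. Npc2, its soluble partner, was not called, at -0.08 ± 0.06 after 24 h. Soat1, which esterifies cholesterol for storage, was at 1175, 1349 and 1443 CPM with Dex and at 1043, 1188 and 1296 CPM with vehicle at 24 h (log2 0.18 ± 0.06), a call that was lost without KO vehicle replicate 1 or WT vehicle replicate 2 (range 0.14 to 0.23).

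The timing itself was tested as the difference between the Dex effects of 2 times, which share no libraries. From 2 h to 8 h the effect became lower for 9 of the 42 genes and higher for 4, against 14.1% and 16.9% of all genes. The 6 with the lowest p were Elovl5, whose effect grew by 0.83 ± 0.07 on the log2 scale, and Msmo1 (-1.003 ± 0.10), Idi1 (-1.24 ± 0.15), Cyp51 (-0.95 ± 0.13), Srebf2 (-0.82 ± 0.12) and Sqle (-1.16 ± 0.18). From 8 h to 24 h the effect became lower for 10 and higher for 4, against 16% and 9.92% of all genes. Without KO vehicle replicate 2 of 24 h it became lower for 9 and higher for 7, and the Scd2 difference (-0.82 ± 0.27), called in 18 of the 24 fits that left out a library, missed the threshold at -0.74 (adjusted p = 0.0532, edgeR). The Elovl5 effect shrank by 0.68 ± 0.07 in that step, that of Mylip turned upwards by 0.69 ± 0.12, and that of Elovl1 by 0.32 ± 0.06, while those of Stard4 (-0.85 ± 0.16), Acat2 (-0.55 ± 0.11) and Elovl6 (-0.64 ± 0.15) became lower. For Hmgcs1 the gap between Dex and vehicle narrowed (0.67 ± 0.16): Dex libraries averaged 64.0 CPM and vehicle libraries 132 CPM at 8 h, and 24 h gave 69.7 CPM with Dex and 89.7 CPM with vehicle. Other genes of the same pathways, from lists fixed by name, showed no common direction. Of 14 other sterol and SREBP genes measured 3 rose and 2 fell at 2 h, 6 rose and 5 fell at 8 h, and 3 rose and 6 fell at 24 h. Acss2, which makes acetyl-CoA from acetate, was higher at each time (log2 0.64 ± 0.13, 0.98 ± 0.14 and 0.74 ± 0.14), and Mbtps2, the protease that releases SREBP, was lower at 8 h (-0.36 ± 0.06). In the list of other fatty acid and lipid assembly genes (19 measured) 3 rose and 2 fell at 2 h, 4 rose and 5 fell at 8 h, and 3 rose and 9 fell at 24 h. Dgat2, which makes triglyceride, was higher by 1.09 ± 0.17 at 2 h and 2.70 ± 0.18 at 8 h, Lpin1, a phosphatidate phosphatase, by 0.79 ± 0.10 and 1.22 ± 0.10, and Mid1ip1, an activator of acetyl-CoA carboxylase, was lower (-0.98 ± 0.07 and -1.29 ± 0.08). The other LXR and cholesterol handling genes (25 measured) had 1 higher and 2 lower at 2 h, 10 higher and 8 lower at 8 h, and 9 higher and 6 lower at 24 h. Arl4c, an LXR target, was lower at 2 h (-1.79 ± 0.13), and Pparg, a receptor upstream of LXR in macrophages, and Lipa, the lysosomal lipase, were lower at 8 h (-1.49 ± 0.08 and -1.42 ± 0.07). Apoc2, an apolipoprotein, was higher at 24 h (2.33 ± 0.15), and Lpl, lipoprotein lipase, was lower (-1.88 ± 0.13).

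Some markers of other cells differed between Dex and vehicle. Of 6 adipocyte markers Fabp4 alone was in the table, which macrophages also express, and the defining markers Adipoq and Plin1 were not analysed here. Fabp4 ranged over 134 to 202 CPM with Dex at 2 h, against 76.6 to 108 CPM with vehicle. At 8 h its range was 139 to 220 CPM with Dex, against 84.2 to 108 CPM with vehicle. At 24 h it was 219 to 347 CPM with Dex and 124 to 228 CPM with vehicle, ranges that overlapped. The 2 dendritic cell markers measured of 5 (Flt3 and Zbtb46) summed to 4.53 to 6.26 CPM with Dex and 0.320 to 1.27 CPM with vehicle at 8 h, and to 2.17 to 3.94 CPM with Dex and 0.601 to 1.10 CPM with vehicle at 24 h. Zbtb46 was at most 1.37 CPM in any library and Flt3 at most 5.37 CPM, so the sum with Dex at 8 h was mostly Flt3. Cd4, the T cell marker measured of 5, was at 1.68 to 6.23 CPM with Dex and 7.74 to 14.3 CPM with vehicle at 24 h. The 5 stromal markers measured of 8 summed to 13.5 to 64.6 CPM with Dex and 6.71 to 23.5 CPM with vehicle at 24 h, ranges that overlapped, as did those of the neutrophil (4 of 7) and B cell (2 of 5) markers at each time. Their part in the results was not tested. Without KO vehicle replicate 2 of 24 h, the library with raised Fkbp5, 28 of the 42 genes were again called at 24 h, 6 higher and 22 lower. Scap was no longer called (adjusted p = 0.0597, edgeR), nor was Hmgcs1 within KO (log2 -0.37, adjusted p = 0.123, edgeR), whose call within KO held in 1 of the 6 fits that left out a library.

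Dex acted on these genes in both genotypes. At 2 h 3 genes were higher and 2 lower in KO, against 5.76% and 4.63% of all genes (10.4% in either direction), and 2 were higher and 1 lower in WT, against 5.85% and 3.17% (9.02%), with 3 called in both. At 8 h 4 were higher and 12 lower in KO, against 20.6% and 17.9% of all genes (38.5%), and 4 were higher and 13 lower in WT, against 19.8% and 17.2% (37%), with 16 called in both. At 24 h 5 were higher and 17 lower in KO, against 18.2% and 20.1% of all genes (38.3%), and 5 were higher and 18 lower in WT, against 20.7% and 21% (41.7%), with 18 called in both. Every gene called in the mean of the genotypes at a time had the same sign in each. At 8 h the log2 fold change of Sqle was -1.47 ± 0.18 in KO and -1.42 ± 0.18 in WT, that of Srebf2 -0.88 ± 0.12 in KO and -0.97 ± 0.12 in WT, and that of Elovl5 1.18 ± 0.07 in KO and 1.22 ± 0.07 in WT. For Mylip at 2 h it was -1.11 ± 0.12 in KO and -1.24 ± 0.12 in WT. Hmgcs1 at 24 h was at -0.41 ± 0.16 in KO and at -0.32 ± 0.16 in WT, where it was called only with the replicate block (adjusted p = 0.0142, edgeR).

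Whether the KO changes the response was tested as the Dex effect in KO minus that in WT. It was called for none of the 42 genes at 2, 8 or 24 h by edgeR, and 0% of all genes were called at each time. At an unadjusted p under 0.05 stood 2 of the 42 at 2 h, 0 at 8 h and 0 at 24 h, and DESeq2 called 0 as well. The 2 at 2 h were Acaca (-0.54 ± 0.24 on the log2 scale, adjusted p = 0.544, edgeR) and Fasn (-0.57 ± 0.26, adjusted p = 0.544, edgeR). The estimates over the 42 genes ran between -0.57 and 0.33 at 2 h, -0.50 and 0.41 at 8 h and -0.34 and 0.39 at 24 h.

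KO was also set against WT directly. Over the 12 KO and 12 WT libraries without Dex 0 of the 42 genes were called by edgeR and 0 by DESeq2, against 0.224% of all genes by edgeR (0.116% higher and 0.108% lower), with 1 gene at an unadjusted p under 0.05. That gene was Abcg1 (log2 -0.16 ± 0.07, unadjusted p = 0.0268, edgeR). WT replicate 1 held the most Abcg1 of the 6 libraries in 6 of the 7 conditions, and KO replicate 2 the least in 5. The test counts libraries that share a genotype and replicate number as separate, so this p may be too small. Over the 9 KO and 9 WT libraries with Dex 0 were called by either tool, against 0.0538% of all genes by edgeR (0.0448% higher and 0.00896% lower), with 5 at an unadjusted p under 0.05, led by Fads2 (-0.42 ± 0.19) and Fads1 (-0.13 ± 0.06). For both comparisons the share of all genes at an unadjusted p under 0.05 is not given here. The widest estimate was that of Scd1, at -0.41 ± 0.28 without and -0.62 ± 0.30 with Dex. KO replicate 1 was the lowest of the 6 libraries in all 7 conditions for Sqle, Cyp51, Scd1, Scd2 and Fads2, and the part of that set in the KO means was not tested.

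**Figure D4:**
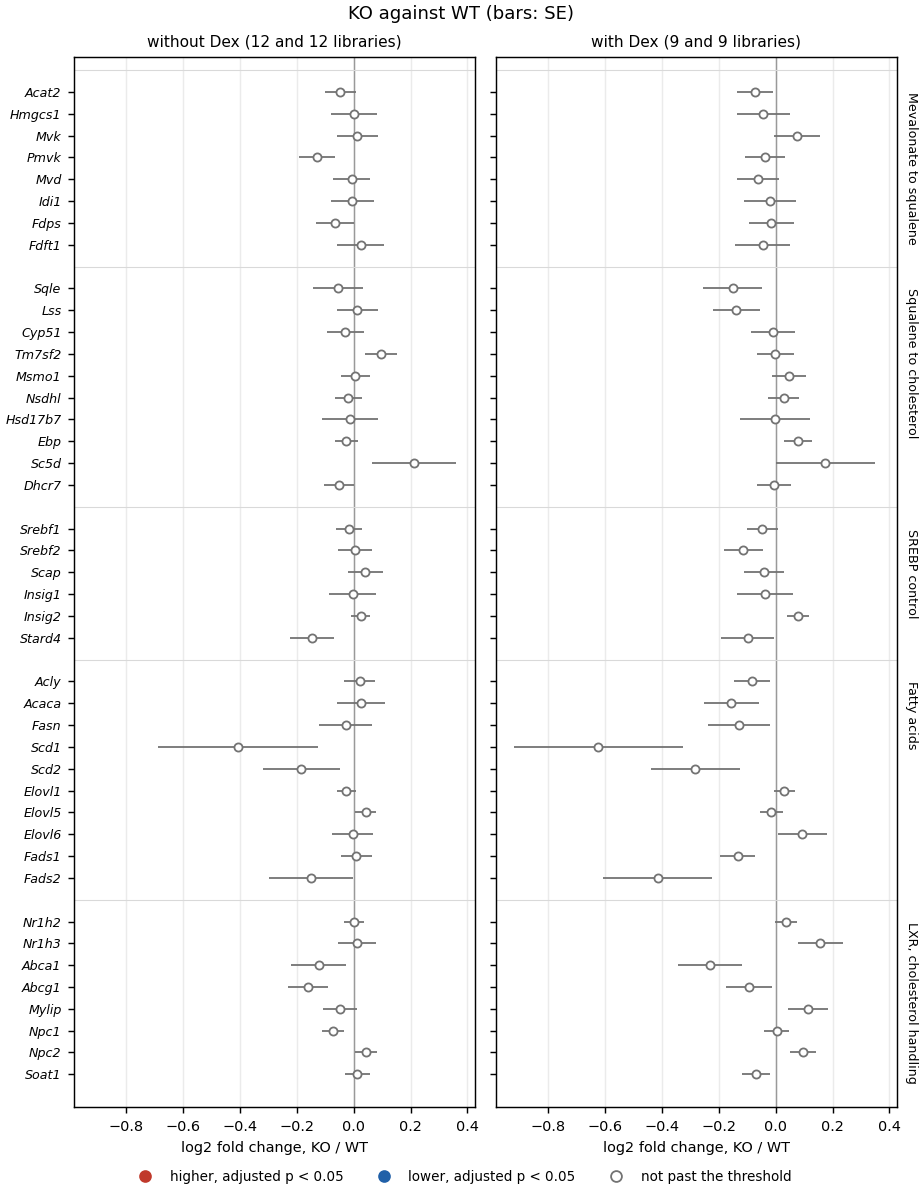
Log2 fold change of KO over WT (x axis; points, bars are SE) for each of the 42 genes (rows, by role), without Dex (left) and with Dex (right). All points are open, since 0 passed an adjusted p of 0.05, and the widest bars belong to Scd1.

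Cells kept in vehicle also changed. Compared with untreated cells of 0 h, 5 of the 42 genes were higher and 0 lower after 2 h of vehicle, against 7.03% and 6.72% of all genes, 3 were higher and 4 lower after 8 h, against 8.49% and 9.66%, and 5 were higher and 23 lower after 24 h, against 15.6% and 15.4%. The vehicle itself and the time in culture cannot be told apart here, and these comparisons use the same vehicle libraries as the Dex comparisons, so a low vehicle library would move both in opposite directions. All 8 mevalonate genes, 7 of the 10 genes from squalene to cholesterol and 3 of the 6 SREBP genes were lower at 24 h.

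Idi1 was at 28.3, 31.0 and 40.6 CPM after 24 h of vehicle and at 46.9, 62.2 and 67.7 CPM in untreated cells, without overlap (log2 -0.87 ± 0.11). Cyp51 was at 36.0, 42.6 and 46.8 CPM with vehicle and at 59.5, 69.5 and 76.3 CPM in untreated cells (log2 -0.73 ± 0.09). Msmo1 was at 119, 129 and 141 CPM with vehicle and at 172, 186 and 198 CPM in untreated cells (log2 -0.50 ± 0.07). Fdps was at 20.3, 28.2 and 29.6 CPM with vehicle and at 34.4, 43.3 and 46.1 CPM in untreated cells (log2 -0.61 ± 0.10), and Srebf2 at 47.3, 55.4 and 61.7 CPM with vehicle and at 72.3, 77.3 and 95.6 CPM in untreated cells (log2 -0.52 ± 0.08). The desaturase Scd2 was at 19.6, 34.7 and 40.7 CPM with vehicle and at 46.0, 60.8 and 96.3 CPM in untreated cells (log2 -1.02 ± 0.20), and Scd1 had the largest change (log2 -2.20 ± 0.42), between groups that overlapped. Npc2 was at 876 to 1020 CPM with vehicle and at 1226 to 1677 CPM in untreated cells (log2 -0.55 ± 0.06), the lowest p of this comparison.

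Of the 8 LXR and cholesterol handling genes 5 were higher after 24 h of vehicle and Npc2 was lower. Among the 5, Soat1 (log2 0.16 ± 0.06) kept its call in 4 of the 12 fits that left out a library. Without KO vehicle replicate 2 of 24 h it had a log2 of 0.15 (adjusted p = 0.0918, edgeR), and 4 were higher and 23 lower of the 42. Abca1 was at 277, 339 and 408 CPM with vehicle and at 149, 186 and 272 CPM in untreated cells, without overlap (log2 0.73 ± 0.14). Nr1h3 was at 31.5, 36.2 and 43.7 CPM with vehicle and at 24.6, 26.1 and 27.8 CPM in untreated cells (log2 0.50 ± 0.10), and Mylip at 37.0, 49.9 and 55.6 CPM with vehicle and at 31.4, 34.5 and 36.9 CPM in untreated cells (log2 0.52 ± 0.08). Abcg1 was not called at 24 h and was lower at 8 h (log2 -0.58 ± 0.10). The other calls at 8 h were higher Mvd (0.30 ± 0.09), Fdft1 and Npc1 and lower Npc2 (-0.17 ± 0.06), Ebp and Scd1. At 2 h Insig1 was higher with vehicle (log2 0.58 ± 0.12), at 54.7, 69.1 and 81.6 CPM with vehicle and 38.3, 47.3 and 51.8 CPM in untreated cells, and Mylip 1.29-fold higher. Elovl5 was higher by 0.18 ± 0.05 on the log2 scale, and the rises of Sqle (0.37 ± 0.12) and Elovl1 (0.14 ± 0.05) at 2 h each held in 4 of the 12 fits that left out a library.

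**Figure D5:**
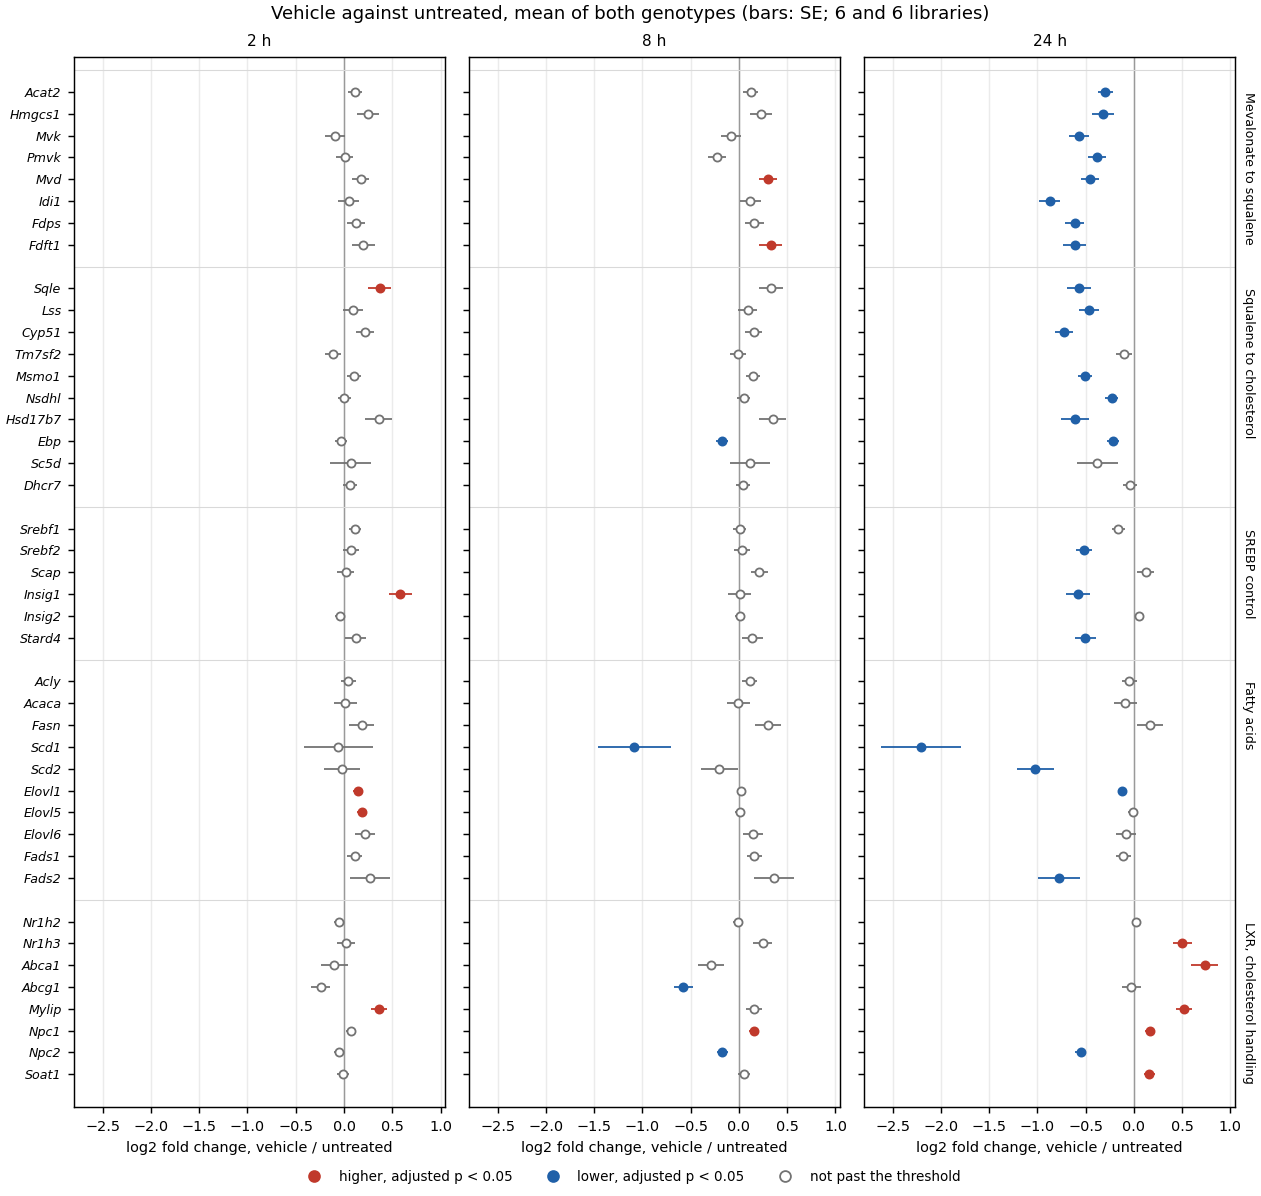
Log2 fold change of vehicle over untreated cells (x axis; points, bars are SE) for each of the 42 genes (rows, by role) after 2, 8 and 24 h, as the mean of KO and WT. At 24 h all 8 mevalonate genes lie on the side of lower levels with vehicle while 5 of the 8 LXR and cholesterol handling genes are called higher.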

How the data were processed

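The authors deposited a table of estimated counts (expected counts, not all of them whole) for 11160 genes by symbol in 42 libraries; the notes name Salmon, an estimator that divides reads between similar transcripts, and, as further entries, fastp, HISAT2 and the build GRCm38, all credited here to the submitters' processing notes and without versions or roles. No annotation or use of strand is stated there. Of the values 69.5% lie within 0.01 of a whole number; all were rounded for the tests, and 0 columns were left unused.

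Groups follow the sample labels. One model with a mean for each of the 14 groups was fitted over all libraries with edgeR 4.0.16 in R 4.3.3 (TMM scaling, factors 0.950 to 1.04; filterByExpr, which removed 0 genes; quasi-likelihood F test). P-values were adjusted by Benjamini-Hochberg over the 11160 genes within a comparison, with a call at an adjusted p under 0.05. SE is the absolute log2 fold change divided by the square root of F. Scaled CPM used the TMM factors. Alternatives were median-ratio scaling, DESeq2 1.42.0, dropping the filter, keeping genes with a mean of 5 CPM or more, a replicate block, the compared libraries by themselves, sums over libraries that share genotype and replicate number, and leaving out each library; the sums with a block were added after seeing the data.

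The 42 genes, the other lists and the naming rule were chosen with earlier results of these data known. The rule gives levels for up to 4 called genes of a role with the largest change at each time and always for 12 genes (Hmgcs1, Sqle, Srebf1, Srebf2, Insig1, Scd1, Scd2, Fasn, Abca1, Abcg1, Nr1h3 and Mylip), up to 6 genes by p for the other comparisons, and up to 4 by p from each further list at a time; of these further genes some are not reported here.

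Same-numbered libraries were taken as pairs where every correlation of their deviations from the group means (log2 CPM, prior count 2) was over 0.1. WT met this for Dex at 8 h (lowest 0.294) and 24 h (0.256), and KO for Dex at 2 h (0.122) and 8 h (0.111). So did KO with WT for vehicle at 2, 8 and 24 h (0.239, 0.229 and 0.227) and Dex at 2 h (0.254), and vehicle with untreated in KO (0.130, 0.255 and 0.369). Replicates differed by more than counting noise (chi-square per degree of freedom 7.07 to 56.9). Gene coordinates are those of GENCODE M21 (GRCm38). The tests were tried on simulated counts.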

Additional observations from a re-analysis of the deposited data

Results flagged for a closer look

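The Dex effect was compared between times by the test of the difference itself (edgeR, adjusted over all genes). For 8 h minus 2 h 13 of the 42 genes (31%) were called, against 31% of all genes. For 24 h minus 8 h 14 (33.3%) were called, against 25.9% of all genes. The 6 called genes with the lowest p in each step are listed, because the response at 1 time does not stand for the others. Between 2 and 8 h the log2 effect moved by 0.83 for Elovl5, -1.003 for Msmo1, -1.24 for Idi1, -0.95 for Cyp51, -0.82 for Srebf2 and -1.16 for Sqle. Between 8 and 24 h it moved by -0.68 for Elovl5, 0.69 for Mylip, -0.85 for Stard4, 0.32 for Elovl1, -0.55 for Acat2 and -0.64 for Elovl6. Elovl5 stands in both lists, with its largest effect at 8 h. Each group holds 3 libraries, too few for a systematic search for single deviating samples within a group. KO vehicle replicate 2 of 24 h was set apart above by its Fkbp5, Tsc22d3 and Ms4a4a levels.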

How the results depend on the processing

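Of 3560 values of called genes under the alternatives 3333 kept their call, 227 lost it and 0 turned. The number of the 42 genes called moved by over 1.5 times in few settings. With the replicate block it was 13 in place of 8 for Dex against vehicle at 2 h. For Dex in WT at 2 h it was 8 in place of 3, and for the Dex effect at 24 h minus 8 h 22 in place of 14. For vehicle against untreated it was 8 in place of 5 at 2 h and 14 in place of 7 at 8 h. The cause was not tested. By the correlation rule, same-numbered Dex and vehicle libraries paired in KO but not in WT at 2 h, and in WT but not in KO at 24 h. Vehicle and untreated libraries paired in KO alone. KO and WT libraries did pair at 2 h, within vehicle and within Dex. At 2 h the block added lower Hmgcs1, Fdps, Sqle, Stard4 and Elovl1 with Dex (edgeR adjusted p = 0.0145, 0.0325, 0.0202, 0.0187 and 0.0106). For 24 h minus 8 h the block also called Msmo1 and Srebf2 (edgeR adjusted p = 0.0466 and 0.0412, against 0.0987 and 0.0836 without it). At 24 h the block also called Abca1, Abcg1 and Mylip higher with Dex (edgeR adjusted p = 0.0442, 0.00778 and 0.0226). On the compared libraries alone, with fewer samples behind the spread, vehicle against untreated gave 3 at 2 h and 2 at 8 h. Leaving out 1 library at a time gave 6 to 8 calls for Dex at 2 h, 18 to 21 at 8 h and 26 to 32 at 24 h; within KO 4 to 8, 15 to 18 and 17 to 22, and within WT 3 to 4, 15 to 17 and 19 to 22; 13 to 14 and 12 to 17 for the differences 8 h minus 2 h and 24 h minus 8 h; and 0 to 0 for KO against WT and for the difference of the Dex effect between genotypes. For vehicle against untreated it gave 2 to 7 at 2 h (2 without WT vehicle replicate 3), 2 to 11 at 8 h (2 without KO vehicle replicate 3, 11 without KO untreated replicate 3) and 25 to 27 at 24 h, and for Dex in KO at 2 h the 8 came without KO Dex replicate 3. DESeq2 gave 9, 22 and 29 calls for Dex at 2, 8 and 24 h, and sums over libraries gave 0 for KO against WT, with and without a block chosen after seeing the data. Among these alternatives the share of all genes called is given here only for the block at 8 h. It was 56.6% there, against 57.1% of the 42 genes. Whether the other counts moved more than those of all genes is thus not shown. Depth limits mainly Scd1 and Fads2, at a few CPM.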

Other observations

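Sets of libraries that share a genotype and a replicate number run through the 7 conditions, and some of the 42 genes kept the same place in each. KO replicate 1 was the lowest of the 6 libraries in all 7 conditions for Sqle, Cyp51, Scd1, Scd2 and Fads2, and WT replicate 3 for Sc5d. These are 6 of the 42 genes (14.3%), and 71 of all 11160 genes (0.636%) were lowest in 1 set throughout. None of the 42 was highest in the same set throughout, against 0.923% of all genes.

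In untreated cells Scd1 was at 1.14 CPM in KO replicate 1 and at 3.02 and 4.84 CPM in KO replicates 2 and 3, with 3.05 to 4.13 CPM in WT. After 2 h of vehicle it was at 0.631 CPM in KO replicate 1 and at 3.38 and 4.37 CPM in the other KO libraries. Fads2 after 8 h of Dex was at 2.13 CPM in KO replicate 1 and at 4.66 and 4.77 CPM in KO replicates 2 and 3. Sqle after 8 h of vehicle was at 58.4 CPM in KO replicate 1 and at 83.9 and 91.4 CPM in KO replicates 2 and 3, with 80.2 to 89.2 CPM in WT. Sc5d after 24 h of Dex was at 10.8 CPM in WT replicate 3, at 19.9 to 21.4 CPM in KO and at 22.5 and 25.4 CPM in the other WT libraries. What the sets share was not tested.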
